A study of Mus musculus with 6 samples.

Results

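Complement genes of the lectin and classical pathways were examined in the left ventricular apex of mice after loss of PTIP, the protein of the gene Paxip1. The set names 9 genes (Masp1, Masp2, C1qa, C1qb, C1qc, C2, C3, Cfd and Serping1), and a probe set (the group of short probes that reads 1 transcript) counted when the platform annotation ties it to 1 of these genes alone. This gave 16 probe sets of 7 genes among 45037 probe sets and 18193 genes in all. C3 and Cfd are not analysed here. The members were chosen from the comparison of knockout with control mice itself, in which Masp1 stood out on its brightest probe set. Their differences are therefore given as a description, with standard errors and without p-values. The number of members that passed is printed, and nothing is read from it.

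RNA came from 3 PTIP KO and 3 PTIP+ mice, with 1 Affymetrix expression array per mouse. All were littermate females of 8 weeks on a mixed C57B6 and B6129 background, tamoxifen was given to both groups at 20 mg/kg, and hearts were taken 5 days after it. PTIP KO mice carried 1 floxed and 1 null allele of Paxip1 and a Cre transgene under the cardiomyocyte-specific alpha myosin heavy chain driver, whose Cre is fused to a modified estrogen receptor and acts once tamoxifen is given. Another label speaks of 5 days of treatment, so the number of doses is unclear. PTIP+ mice carried 1 floxed and 1 wild-type allele. For them no Cre transgene is named in the labels, so effects of the transgene, of the null allele and of the induced deletion cannot be told apart. Other cells of the apex keep the floxed allele.

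Complement is a cascade of plasma proteins that marks surfaces for removal. In the classical pathway C1q, built from A, B and C chains and made largely by tissue macrophages, binds immune complexes and activates the proteases C1r and C1s. In the lectin pathway mannose-binding lectins, ficolins and collectins bind sugars and activate the related proteases MASP-1 and MASP-2, encoded by Masp1 and Masp2. Both routes cleave C4 and C2 to form the enzyme that splits C3, and C1 inhibitor, the product of Serping1, blocks the proteases of both. The liver makes most circulating complement, and other tissues make part of it locally.

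The C1q genes are the members whose values moved together from mouse to mouse, and they lie next to one another on chromosome 4 in the order C1qb, C1qc, C1qa. The 250 bases before the RefSeq start sites of C1qb and C1qc (GRCm38.p6) are shown because the C1q genes shared a pattern over the 6 mice. C1qa shared it too, but no promoter sequence was available for it here. The C1qb window is chr4:136886201-136886450 and the C1qc window chr4:136892915-136893164, both on the minus strand and written 5′ to 3′ in the direction of the gene. Capitals mark matches on either strand to TGCTGA, the core bound by MAF factors, or to AGGAAG, a core bound by ETS factors such as PU.1, both families of macrophage transcription factors. The 2 motifs do not overlap in these windows.
C1qb: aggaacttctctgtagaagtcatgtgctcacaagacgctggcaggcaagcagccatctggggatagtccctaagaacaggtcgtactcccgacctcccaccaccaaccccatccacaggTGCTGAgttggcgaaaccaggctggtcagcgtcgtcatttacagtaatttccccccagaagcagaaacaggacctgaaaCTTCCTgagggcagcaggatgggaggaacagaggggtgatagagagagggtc
C1qc: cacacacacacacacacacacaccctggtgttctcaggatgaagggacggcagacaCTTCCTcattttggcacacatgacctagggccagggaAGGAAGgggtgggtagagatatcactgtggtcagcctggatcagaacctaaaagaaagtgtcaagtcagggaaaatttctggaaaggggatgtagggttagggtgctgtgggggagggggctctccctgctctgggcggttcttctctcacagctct
C1qb held TGCTGA once, starting 131 bases before the start site, and AGGAAG once on the opposite strand, starting 52 bases before it. C1qc held no TGCTGA and had AGGAAG at 2 places, 194 and 157 bases before the start. Among 32851 mouse promoter windows of the same length, 16.1% held TGCTGA and 29.5% held AGGAAG, so these matches are common and are a description of the letters alone.

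Paxip1, the targeted gene, was lower in all 3 PTIP KO mice than in all 3 PTIP+ mice on each of its 4 probe sets. On 1423303_at, where the difference was largest at -1.83 (SE 0.17), it read 6.34, 5.90 and 5.90 in PTIP KO and 7.80, 7.71 and 8.10 in PTIP+ mice. The difference was smallest on 1434363_x_at, its probe set of highest mean, at -0.95 (SE 0.16, limma adjusted p = 0.106). Probe sets 1423302_a_at and 1454943_a_at differed by -1.58 and -1.54. The arrays correlated between 0.989 and 0.995 over all probe sets, and the log2 gap between the actin control probes at the 3' and 5' ends of the transcript, which widens as RNA degrades, lay between 1.45 and 1.64 in PTIP KO and between 1.17 and 1.85 in PTIP+ mice. The 9 cardiomyocyte markers examined read between 12.5 and 13.9 on every array, which checks the labelled tissue. All values are RMA values on the log2 scale, where a difference of 1 is a doubling. As all mice were female, 13 probe sets of 6 Y-linked genes gave a level without target RNA, with a median of 2.45 and a highest value of 5.50. The highest value came from the Sry probe set 1450579_x_at, whose mean was 5.30, and the next highest probe set mean was 4.46.

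Masp1, which encodes the proteases MASP-1 and MASP-3 through alternative splicing, was lower in the PTIP KO ventricles on every one of its 5 probe sets. The brightest of them, which represents the gene here, read 4.35, 4.57 and 4.63 in PTIP KO mice 1, 2 and 3, and 6.55, 6.38 and 6.59 in PTIP+ mice 1, 2 and 3. The groups did not overlap, and the gap between them was far wider than the spread within either. The means were 4.51 ± 0.15 and 6.51 ± 0.11 (SD, n = 3 each), a log2 difference of -1.99 (SE 0.12).

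The other 4 Masp1 probe sets were dimmer. Probe set 1419677_at read 2.83, 3.73 and 4.01 in PTIP KO mice and 4.70, 4.88 and 4.61 in PTIP+ mice, a difference of -1.21 (SE 0.29). The spread lay mostly in PTIP KO mouse 1, which was lowest here and also on 1425985_s_at. That probe set, 1425985_s_at, read 3.30, 4.24 and 3.74 against 4.57, 5.08 and 5.30, a difference of -1.22 (SE 0.27). Probe set 1438602_s_at read 3.97, 3.75 and 3.94 against 4.90, 4.81 and 5.15, a difference of -1.07 (SE 0.13) with little spread in either group. The smallest difference was on 1438603_x_at, whose suffix marks probes that may also bind other transcripts. It read 3.755, 3.927 and 3.853 against 3.930, 4.064 and 4.435, so that PTIP KO mouse 2 and PTIP+ mouse 1 lay side by side, and differed by -0.30 (SE 0.15). The groups did not overlap on any of the 5, where 6.73% of all probe sets separated with PTIP KO lower. Of the 5, only the brightest exceeded the highest Y-linked value, and only in the PTIP+ mice, so its PTIP KO level lay in the range of probe sets without target and the size of the fold change is not fixed by these values. That highest Y-linked value came from an Sry probe set with the same suffix as 1438603_x_at. All values of the 4 dimmer Masp1 probe sets lay between it and the Y-linked median of 2.45. The mean over all 5 probe sets gave a difference of -1.16. Which of the splice forms each probe set reads was not determined.

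**Figure D1:**
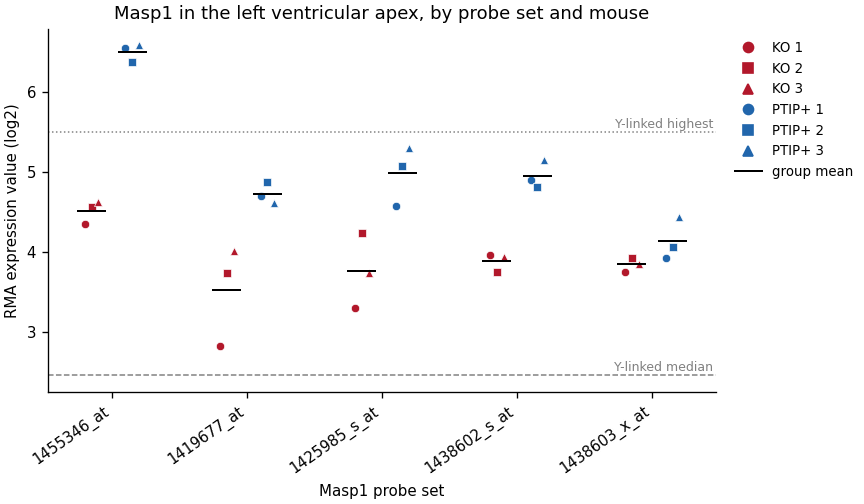
RMA expression values (log2) of the 5 Masp1 probe sets in each PTIP KO (red) and PTIP+ (blue) mouse, with group means as black bars and the median and highest value of 13 Y-linked probe sets as grey lines. All PTIP KO points lie below all PTIP+ points on each probe set, and only the PTIP+ values of the leftmost and brightest one, at 6.38 to 6.59, exceed the highest Y-linked value of 5.50.

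The genes beside Masp1 on chromosome 16, named by position, did not share its difference. St6gal1, a sialyltransferase gene, differed by -0.02 (SE 0.10, limma adjusted p = 0.980), Rtp4, which aids receptor transport to the cell surface, by 0.32 (SE 0.17, limma adjusted p = 0.646) and Sst, the somatostatin gene, by 0.02 (SE 0.19, limma adjusted p = 0.987). The genes whose 6 values, each centred on the gene's mean, came closest to those of Masp1 were Mrln, Alox5, Frem2, Flvcr2 and Kcnd3, out of 16319 genes compared. Their root mean square differences from Masp1 were 0.198, 0.211, 0.239, 0.290 and 0.297 on the log2 scale over the 6 arrays. All 5 were thus genes with lower values in the PTIP KO mice, by -2.03 for Alox5, the lipoxygenase of leukotriene synthesis, down to -1.45 for Kcnd3, a potassium channel gene. The measure finds this by construction.

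Masp2, whose protease cleaves C4 and C2, did not stand above the level of Y-linked probe sets. Probe set 1420524_a_at read 3.32, 2.75 and 3.08 in PTIP KO and 3.13, 3.00 and 2.67 in PTIP+ mice, with overlapping groups and a difference of 0.12 (SE 0.18). The sign changed to -0.02 without PTIP KO mouse 1 and likewise without PTIP+ mouse 3. The other Masp2 probe set, 1451759_at, read between 2.77 and 3.22 on all arrays and differed by -0.14 (SE 0.13).

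The C1q chain genes had lower means in the PTIP KO mice, with overlapping groups on all 5 of their probe sets. C1qa, the A chain, read 8.25, 7.54 and 7.76 in PTIP KO mice 1, 2 and 3 and 7.77, 8.24 and 8.29 in the PTIP+ mice, a difference of -0.25 (SE 0.22). C1qb, the B chain, read 10.67, 9.96 and 10.29 on 1437726_x_at against 10.52, 10.73 and 10.67, a difference of -0.33 (SE 0.18). C1qc, the C chain, read 9.22, 8.31 and 8.73 against 8.97, 9.14 and 9.19, a difference of -0.35 (SE 0.22). In all 3 genes PTIP KO mouse 2 was lowest, and PTIP KO mouse 1 lay within or above the range of the PTIP+ mice. The other C1qb probe sets, 1417063_at and 1434366_x_at, differed by -0.32 (SE 0.27) and -0.21 (SE 0.17) and were likewise lowest in PTIP KO mouse 2. Without that mouse the differences of C1qa, C1qb and C1qc were -0.09, -0.16 and -0.13, and without PTIP KO mouse 1 they were -0.45, -0.51 and -0.58.

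**Figure D2:**
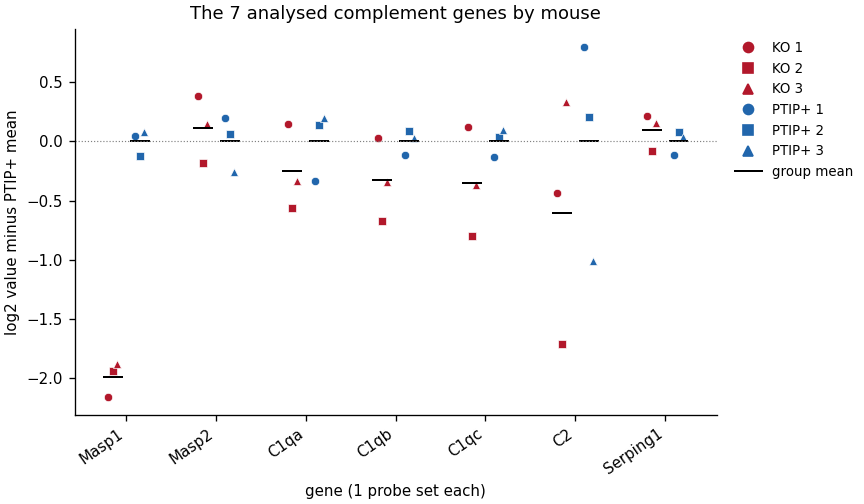
Values of the 7 analysed complement genes in each mouse on 1 probe set per gene, as log2 value minus the mean of the PTIP+ mice, with group means as black bars. Masp1 separates the groups, while the C1q genes, C2, Masp2 and Serping1 overlap, and PTIP KO mouse 2 is lowest for C1qa, C1qb, C1qc and C2.

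Markers of macrophages, the main source of C1q in tissue, had lower means by a similar amount. Of 16 macrophage markers, 15 had a lower mean in the PTIP KO mice and none passed the limma test at an adjusted p under 0.05. Before adjustment, 7 markers were lower and 0 higher at a limma p under 0.05, and 7 separated the groups, where 3.8% and 6.57% of all genes did so in that direction. Their median difference was -0.35, against 0.02 over all genes. Mrc1, the mannose receptor gene, read 9.16, 9.02 and 9.37 in PTIP KO and 9.83, 9.64 and 9.60 in PTIP+ mice, a difference of -0.51 (SE 0.13, limma adjusted p = 0.288). Cd163, a haemoglobin scavenger receptor gene, differed by -0.38 (SE 0.12, limma adjusted p = 0.381) and Adgre1, which encodes a macrophage surface antigen of the adhesion receptor family, by -0.47 (SE 0.15, limma adjusted p = 0.405). The exception was Timd4, a receptor for phosphatidylserine, at 0.17 (SE 0.34).

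Averaged over the 16 markers, each centred on its mean, the level was 0.01, -0.37 and -0.09 in PTIP KO mice 1, 2 and 3 and 0.01, 0.29 and 0.16 in the PTIP+ mice. The mean of the C1q genes, centred in the same way, was 0.25, -0.52 and -0.20 in PTIP KO and -0.04, 0.24 and 0.26 in PTIP+ mice. PTIP KO mouse 2 was thus lowest on both and PTIP KO mouse 3 next, while PTIP KO mouse 1 was high on C1q and level with PTIP+ mouse 1 on the markers. The group differences were -0.31 for each, and without PTIP KO mouse 2 they were -0.13 for C1q and -0.20 for the markers. In bulk tissue, fewer cells of a type and less RNA per cell cannot be told apart, and the part of macrophage content in the C1q values was not tested.

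C2, the protease that pairs with C4 in the convertase, had the widest spread within groups of the 7 representative probe sets. Probe set 1457664_x_at read 6.07, 4.79 and 6.83 in PTIP KO and 7.30, 6.71 and 5.49 in PTIP+ mice, with overlapping groups. PTIP KO mouse 2 and PTIP+ mouse 3 were lowest, and the difference was -0.61 with an SE of 0.60. The other C2 probe sets, 1416051_at and 1441912_x_at, differed by -0.12 (SE 0.46) and -0.12 (SE 0.27), and the same mice were lowest on both. The difference on 1457664_x_at was -0.05 without PTIP KO mouse 2 and -0.21 without PTIP+ mouse 1. It was -1.08 without PTIP KO mouse 3 and -1.11 without PTIP+ mouse 3. Over the 4 arrays whose description numbers begin alike, PTIP KO mouse 3 alone against the PTIP+ mice, it was 0.33. Cfb, the neighbour of C2 on chromosome 17 and its counterpart in the alternative pathway, differed by 0.14 (SE 0.25, limma adjusted p = 0.926).

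The order of the mice for C2 was close to that of 8 mesothelial markers, the genes of the cell layer that covers the heart. This was noticed after the values were seen. The averaged level of these markers was -0.18, -1.40 and 0.84 in PTIP KO and 0.53, 0.63 and -0.41 in PTIP+ mice, so PTIP KO mouse 2 and PTIP+ mouse 3 were lowest here as well. Upk3b, a uroplakin gene of mesothelium, read 7.07, 5.37 and 8.84 against 8.38, 8.52 and 7.59, and Msln, the mesothelin gene, read 6.39, 5.15 and 7.72 against 7.49, 7.39 and 6.82. PTIP KO mouse 2 was lowest on 7 of the 8 markers. The exception was Wt1, a transcription factor gene of the epicardium, which read 7.28, 7.69 and 7.75 against 8.49, 7.92 and 7.61, a difference of -0.44 (SE 0.24, limma adjusted p = 0.670). Of the 8 markers, 6 were lower in mean and none passed at an adjusted p under 0.05 in the limma fit, nor at an unadjusted one. Their averaged difference of -0.49 was 0.08 without PTIP KO mouse 2, -0.31 without PTIP+ mouse 2, -1.04 without PTIP KO mouse 3 and -0.82 without PTIP+ mouse 3. Their part in the C2 values was not tested.

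**Figure D3:**
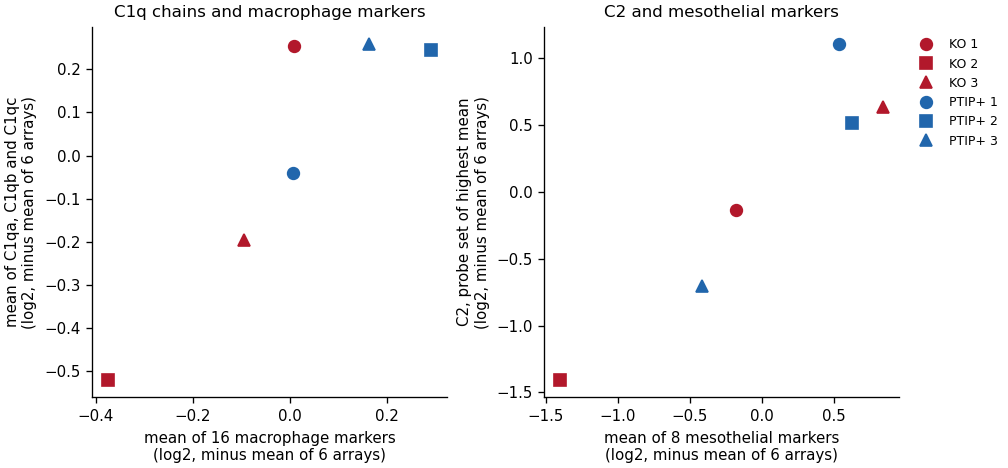
Left, mean log2 level of C1qa, C1qb and C1qc against that of 16 macrophage markers; right, C2 on its probe set of highest mean against the mean of 8 mesothelial markers, each minus its mean over the 6 arrays, with 1 point per mouse (red PTIP KO, blue PTIP+). PTIP KO mouse 2 is lowest on all 4 axes, and PTIP+ mouse 3 is next lowest for C2 and the mesothelial markers.

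Serping1, the gene of C1 inhibitor, had the narrowest spread of these probe sets after Masp1. It read 11.60, 11.30 and 11.54 in PTIP KO and 11.27, 11.46 and 11.42 in PTIP+ mice, with overlapping groups and a difference of 0.10 (SE 0.13). The genes of the proteases it inhibits in the classical pathway were near it in difference, C1ra at 0.09 (SE 0.14, limma adjusted p = 0.920) and C1s1 at 0.08 (SE 0.11, limma adjusted p = 0.896). Fibroblast markers, of a cell type that makes these proteins, had a median difference of 0.03 over 11 genes.

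Of the 7 analysed members, Masp1 alone passed at a limma adjusted p under 0.05, where 0.286% of 18193 genes did, and since the members were chosen from this contrast nothing is read from that count. With 1 mouse left out, Masp1 no longer passed without PTIP KO mouse 1, PTIP KO mouse 2 or PTIP+ mouse 2. Its difference lay between -2.06 and -1.91 whichever mouse was left out. These fits reuse the values from which Masp1 was chosen, so they are no independent support for it. The median difference of the 7 was -0.33, with 5 lower and 2 higher. Over all genes it was 0.02, with 8169 of 18193 lower. As the members were chosen from this contrast, nothing is read from that comparison either.

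The rest of the complement system was covered by 51 listed genes, of which 42 were measured. Many of these were dim, and 15 of the 42 read 6 or more on at least 3 arrays. None passed at an adjusted p under 0.05 with limma in either direction. At an unadjusted p under 0.05 there were 3 higher and 4 lower, where 5.47% and 3.8% of all genes were. Among these, Mbl2, Hc, Cfi and Pzp read below the highest Y-linked value of 5.50 on every array. With limma on only the probe sets at 6 or more on 3 arrays, 2 of the 15 were below an unadjusted p of 0.05. Their median difference was -0.02, with 19 higher and 23 lower. That median lay 0.04 below the median of all genes with the deposited values, with median centring (25 higher and 17 lower) and with renewed quantile normalization (20 higher and 22 lower).

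Among the 7 listed lectin recognition genes, 4 were higher in mean and 3 lower. The 4 higher ones, Mbl1, Mbl2, Fcnb and Colec10, all read below the highest Y-linked value of 5.50 on every array. The 3 lower ones, Fcna, Colec11 and Colec12, were brighter. Colec11, a collectin gene, read between 8.06 and 8.73 and differed by -0.03 (SE 0.19). Colec12 read between 5.56 and 6.32 and differed by -0.01 (SE 0.25). Fcna, the ficolin A gene, read 6.38, 6.45 and 6.83 in PTIP KO and 6.47, 7.11 and 7.22 in PTIP+ mice, a difference of -0.38 (SE 0.22, limma adjusted p = 0.702). Mbl2, a mannose-binding lectin gene, differed by 0.32 (SE 0.10, limma adjusted p = 0.414) at values between 1.95 and 2.41, below the Y-linked median. Fcnb, the ficolin B gene, was likewise dim and differed by 0.22 (SE 0.13).

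Receptors of complement fragments included the smallest p of these 42 genes. C5ar1, the receptor of the inflammatory fragment C5a, read 9.13, 8.91 and 8.92 in PTIP KO and 9.50, 9.45 and 9.50 in PTIP+ mice, a difference of -0.50 (SE 0.11, limma adjusted p = 0.214). The groups did not overlap, where 6.57% of all genes separated with PTIP KO lower. The other C5ar1 probe set, 1422190_at, read between 3.14 and 3.56 and differed by -0.16 (SE 0.12), with overlapping groups. C3ar1, the receptor of C3a, read 5.45, 5.56 and 5.59 against 6.60, 5.92 and 5.81, a difference of -0.58 (SE 0.21, limma adjusted p = 0.459). Its probe sets disagreed, with -0.36 on 1419483_at and 0.16 on 1442082_at. Itgax, a subunit of complement receptor 4, differed by 0.51 (SE 0.24, limma adjusted p = 0.600) at values under 4. Of the other integrin subunits of complement receptors, Itgb2 differed by 0.18 (SE 0.12, limma adjusted p = 0.752) at values between 5.85 and 6.24. Itgam differed by -0.01 (SE 0.13) at values between 2.52 and 2.95. Of the 9 measured receptors, 7 were lower in mean and 2 higher. The part of macrophage content, whose markers are given above, in these values was not tested.

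Regulators differed in both directions, 6 higher and 7 lower of 13 measured. Clu, the gene of clusterin, which blocks assembly of the terminal complex, read between 13.25 and 13.31 in PTIP KO and between 12.94 and 13.09 in PTIP+ mice, a difference of 0.28 (SE 0.10, limma adjusted p = 0.468). Its 3 other probe sets differed by 0.22 to 0.35, each without overlap of the groups, where 3440 of all 45037 probe sets separated with PTIP KO higher. Cfi, the protease that inactivates C3b and C4b, differed by -0.47 (SE 0.19, limma adjusted p = 0.531) at values under 3.5, and Susd4, a regulator of the C3 convertases, by -0.22 (SE 0.14, limma adjusted p = 0.743).

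The 6 measured genes of the terminal pathway, which builds the membrane attack complex, were mostly dim. Hc, the C5 gene, read 2.47 to 2.56 in PTIP KO and 2.10 to 2.21 in PTIP+ mice, a difference of 0.34 (SE 0.10, limma adjusted p = 0.349) near the Y-linked median. C6 differed by 0.33 (SE 0.22) and C9 by 0.15 (SE 0.16), also at values under 3.4. Properdin, the stabiliser of the alternative convertase encoded by Cfp, differed by -0.28 (SE 0.26, limma adjusted p = 0.836) on its brighter probe set and by -0.48 (SE 0.19, limma adjusted p = 0.513) on the other. Of the MASP inhibitors other than C1 inhibitor, Pzp differed by -0.42 (SE 0.18, limma adjusted p = 0.541), A2m by -0.05 (SE 0.26) and Serpinc1, antithrombin, by -0.03 (SE 0.13), all at values under 4.2.

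**Figure D4:**
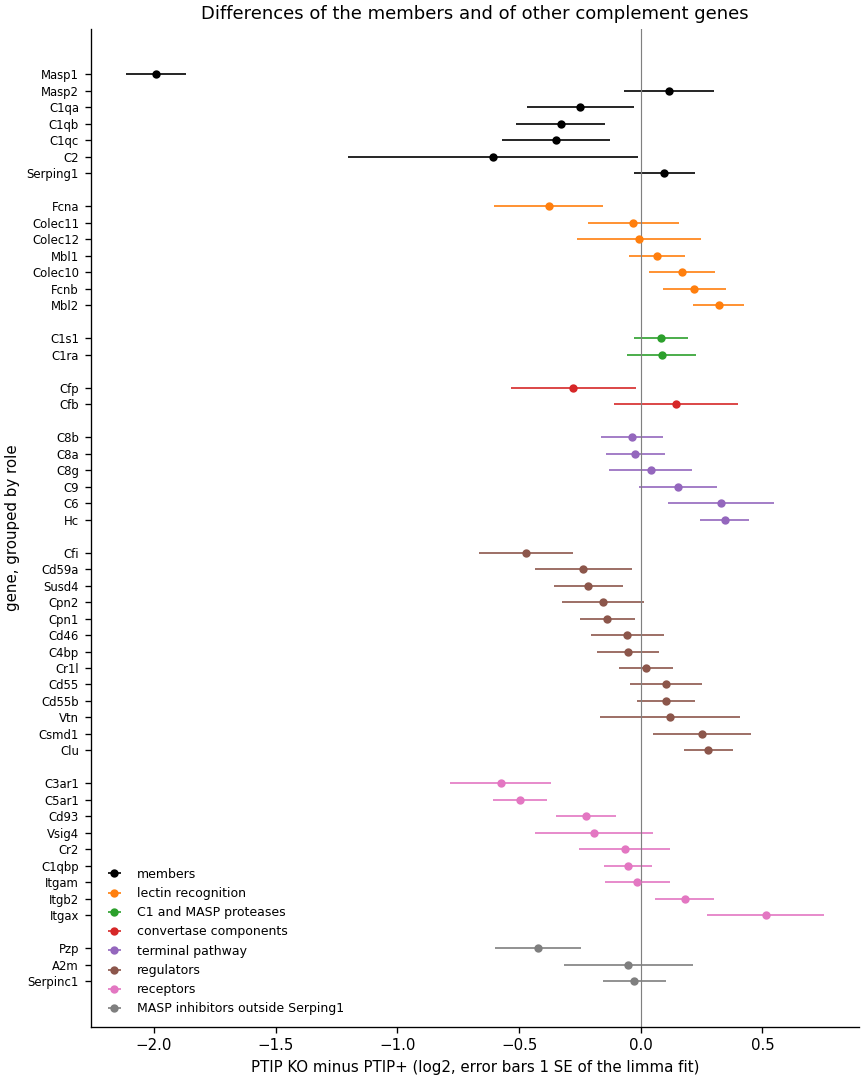
Log2 difference of PTIP KO minus PTIP+ mice with 1 SE of the limma fit for the 7 analysed members (black) and 42 other complement genes, grouped by role. Masp1 lies at -1.99, and the other complement genes lie between -0.58 for C3ar1 and 0.51 for Itgax.

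Markers of other cell types were examined in the same way, and none passed at an adjusted p under 0.05 with limma. At an unadjusted p under 0.05, 1 of 8 hepatocyte markers was higher and none lower, with a median difference of 0.14, and albumin (Alb), the defining one, read between 2.27 and 2.57, near the Y-linked median. The median difference was 0.22 over 8 adipocyte markers (1 higher and 1 lower at an unadjusted p under 0.05) and 0.0041 over 6 of monocytes and neutrophils (1 higher). It was -0.32 over 3 of red cells (1 lower) and 0.23 over 6 of lymphocytes. The red cell median and the lower marker were both Hba-a1, which read between 1.80 and 2.33, below the Y-linked median. The other red cell markers, Alas2 and Slc4a1, differed by 0.21 (SE 0.26) and -0.48 (SE 0.52). The median difference was 0.10 over 8 markers of endothelium, 0.08 over 8 of smooth muscle and pericytes and -0.01 over 9 of cardiomyocytes. None of the markers of fibroblasts, lymphocytes, endothelium, smooth muscle or cardiomyocytes was below an unadjusted p of 0.05.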

How the data were processed

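Expression was measured on 6 Affymetrix arrays, 3 PTIP KO and 3 PTIP+ mice. The deposited values are log2 values that the authors made with RMA, per the submitters' processing notes. The RMA release was not given in the sources used here. The range of 1.36 to 14.3 gave the log base. RMA makes arrays alike in distribution and compresses dim probe sets. Target was amplified with the NuGen Ovation Biotin system, per the labels.

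After leaving out 64 control probe sets, 45037 were tested, of which 34945 had 1 gene in the platform annotation, 932 several and 9160 none. Symbols were updated through Entrez identifiers (34741 found, RefSeq GRCm38.p6). A gene is described by its probe set of highest mean, which for Masp1 is also the probe set the member rule names. No array coordinates are printed because no build is named. Promoters came from RefSeq, where 5 of the 9 genes matched.

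PTIP KO minus PTIP+ was estimated with limma 3.58.1 under R 4.3.3 (lmFit, eBayes, group as the only term, two-sided), with Benjamini-Hochberg adjustment over all tested probe sets and a threshold of 0.05, and the script was tested on simulated data. The number of arrays limits the precision, with a median SE of 0.147. Members and lists (7 complement roles and 11 cell types) were chosen with earlier results of these data known. Named genes were all members, up to 3 genes of smallest p per list described, the 5 patterns closest to Masp1, and others as stated. Each array is a separate mouse, per the labels.

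Other settings tried were eBayes with a trend, eBayes with a robust prior, an unmoderated fit, weights per array, 2 filters on dim probe sets, quantile normalization again, centring on the median, a block for the replicate number, each mouse left out, the 4 arrays of like description number, gene means over probe sets, and thresholds of 0.1 and 0.01. Leaving out each mouse for the averaged marker levels was added after seeing the data.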

Additional observations from a re-analysis of the deposited data

How the results depend on the processing

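The Masp1 difference kept its sign and stayed between -2.06 and -1.88 under every alternative run except the mean of all 5 probe sets, which gave -1.16. Masp1 was the only member called, and the number of members called was 0 without moderation, with the replicate block and over the 4 arrays of like description number, and 0 to 1 with a mouse left out. Only 10 or 11 of the alternatives can change a difference at all, since the others alter the test or the probe sets tested. Among these, C1qb kept its sign under 11, C1qa, C1qc and Serping1 kept it under 10, Masp2 changed sign under 3 of 11 and C2 under 1 of 11. No other complement gene was called under any alternative. Over all probe sets, 86 were called, and the count was 185 with a variance trend, 51 with a robust prior, 1 without moderation, 204 with array weights, 141 with only probe sets at 6 or more on 3 arrays, 196 at an adjusted p under 0.1 and 4 at 0.01. It was 0 over the 4 arrays of like description number (limma, 2348 at an unadjusted p under 0.05), where PTIP KO mouse 3 stands alone against the PTIP+ mice and is assumed to vary as they do, and 0 to 21 with a mouse left out. Deviations of same-numbered mice from their group means correlated at -0.15, -0.08 and -0.01, and those of the other pairs between -0.18 and 0.20. With 3 mice per group these correlations depend on one another, so they cannot decide whether the mice were paired. The replicate block gave 0 calls (limma, 3392 at an unadjusted p under 0.05). Signal near or within the range of Y-linked probe sets limits Masp2, the dimmer Masp1 probe sets and the terminal pathway genes. The PTIP KO values of the brightest Masp1 probe set are limited in the same way. So are other complement genes, among them Mbl1, Mbl2, Fcnb, Colec10, Cfi, Pzp, A2m, Serpinc1, Itgam and Itgax.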
